A study of Homo sapiens with 6 samples.

Results

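The genes described here are the 10 human genes AGO1, AGO2, AGO3, DICER1, DROSHA, DGCR8, XPO5, TARBP2, TNRC6A and TNRC6B. They encode machinery used by microRNAs and, in part, by an expressed short hairpin RNA (shRNA). They were picked by symbol from a table of 60643 genes; each symbol occurs in 1 row. All 10 passed the filter on low values. The libraries came from HCT116, an established human colorectal cancer line, transfected with an shRNA that targets CAPG (a protein that caps actin filaments) and is switched on by doxycycline. The +Dox group (3 libraries, labelled CAPG knockdown) had doxycycline at 100 ng/µl, the unit the labels give, for 3 days, and the -Dox group (3 libraries, labelled wild type and untreated) is the same shRNA line without the drug. Both groups carry the shRNA construct, whose sequence the sources used here do not give; 1 hairpin was used, the sample descriptions numbering it shCAPG-2. The labels give the tissue as rectum and do not say whether the line is a single clone or whether the replicates are separate cultures; the p-values below therefore cover the spread among 6 libraries, technical or not. Libraries given doxycycline without this hairpin were not analysed here, so drug and hairpin cannot be told apart.

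MicroRNAs are cut out of primary transcripts in the nucleus by the Microprocessor, in which the ribonuclease DROSHA works with its RNA-binding partner DGCR8. XPO5 (exportin 5) carries the resulting hairpin to the cytoplasm, DICER1 with its partner TARBP2 cuts it to a duplex, and a strand is loaded onto an Argonaute protein. Argonautes bind the scaffold proteins TNRC6A and TNRC6B, also called GW182 proteins, which recruit the enzymes that silence the target mRNA. An shRNA expressed in a cell uses XPO5, DICER1 and the Argonautes; AGO2 is the Argonaute that can slice a fully paired target.

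Values are the authors' FPKM, fragments scaled to transcript length and library size. Estimated depth lay between 21400000 and 21900000 fragments in the +Dox libraries and between 16700000 and 21800000 in the -Dox libraries, the lowest being -Dox replicate 3. CAPG checked the labels: it was at 8.73 ± 1.08 FPKM in +Dox cells and 57.2 ± 3.75 FPKM in -Dox cells (SD, n = 3 each; log2 change -2.59, limma adjusted p = 7.24e-06). Of 10 colon epithelial markers 8 passed the filter of 1 FPKM, with EPCAM called higher, ELF3 called lower and KRT8 not called, while VIL1 and CEACAM5 stayed under 0.133 FPKM in all 6 libraries. Summed endothelial markers reached at most 0.574 FPKM in +Dox and 0.246 FPKM in -Dox libraries. Fibroblast markers summed to 7.58 to 9.80 FPKM in +Dox and 7.97 to 11.3 FPKM in -Dox libraries, nearly all of it COL1A1, with COL1A2 and DCN at 0. Leukocyte markers summed to 2.32 to 2.80 FPKM in +Dox and 4.08 to 4.97 FPKM in -Dox libraries, mostly CD68, which was called lower (limma adjusted p = 0.0167), with CD3E at 0. Their part in the results was not tested.

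The +Dox replicate 3 library stood apart in a way that touches these genes. Its values were low for genes with long transcripts. Against the mean of the other +Dox libraries on the log2(FPKM + 1) scale, its median difference was 0.18 over 3816 tested genes with a longest GENCODE transcript of up to 2000 bases and -0.24 over 489 genes above 10000 bases. The 10 genes are long, with a median transcript of 9384 bases against 3246 over all tested genes, and AGO1, AGO2, AGO3, DICER1 and TNRC6B exceed 10000 bases, as do 3.4% of tested genes. Those 5 were lowest in replicate 3 among the +Dox libraries, with differences of -0.41, -0.50, -0.51, -0.41 and -0.64, while TARBP2, the shortest member at 1867 bases, was highest there (0.25). Changes are therefore also given without this library, and its part in the results was not tested otherwise than by leaving it out and by a correction for transcript length and GC content.

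**Figure D1:**
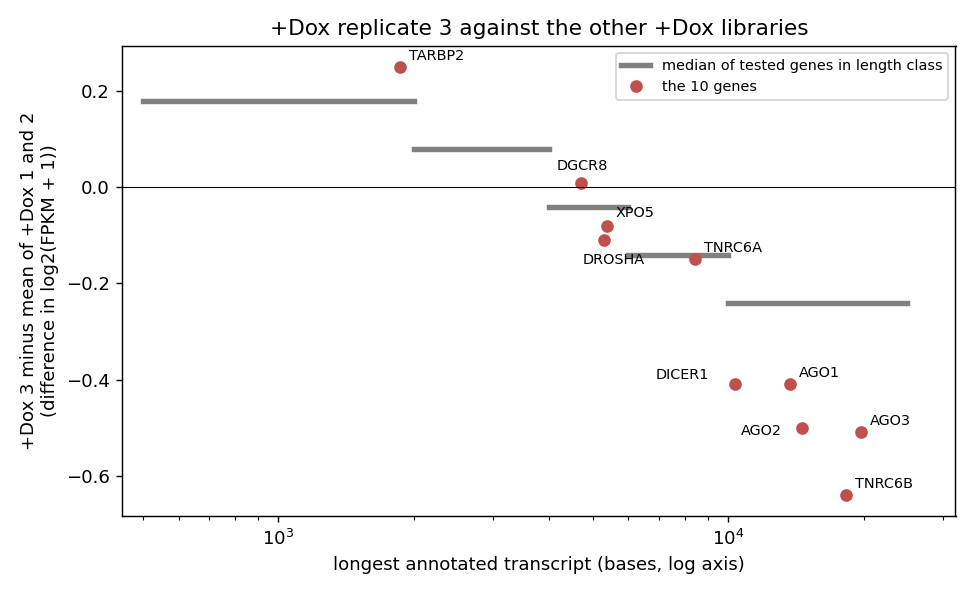
Difference in log2(FPKM + 1) between +Dox replicate 3 and the mean of +Dox replicates 1 and 2 (vertical axis) against the longest annotated transcript in bases (horizontal log axis); red points are the 10 genes and grey bars the medians of all tested genes per length class. The grey medians go from 0.18 below 2000 bases to -0.24 above 10000 bases, and the 5 longest members lie between -0.41 and -0.64.

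Across the 10 genes, 1 was lower with doxycycline at a limma adjusted p under 0.05 (DROSHA) and 0 were higher. Of all 14475 tested genes 8.46% were called in either direction, 3.69% higher and 4.77% lower, so the members' share is near that background. The members with an unadjusted limma p under 0.05 numbered 4, 2 higher (TARBP2, TNRC6A) and 2 lower (DROSHA, AGO1), against 27.9% over all tested genes. In the same 4 the groups did not overlap, as in 34.5% of tested genes. The median log2 change of the members was -0.07, against -0.003 over all tested genes, and the median size of change was 0.11 against 0.16. Over all tested genes the median log2 change also fell with transcript length. It was 0.04 up to 2000 bases, -0.03 from 4000 to 6000, -0.05 from 6000 to 10000 and -0.09 above 10000 bases. The summed FPKM of the 10 genes was 156 ± 15.0 in +Dox and 159 ± 5.52 in -Dox cells (SD, n = 3 each).

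**Figure D2:**
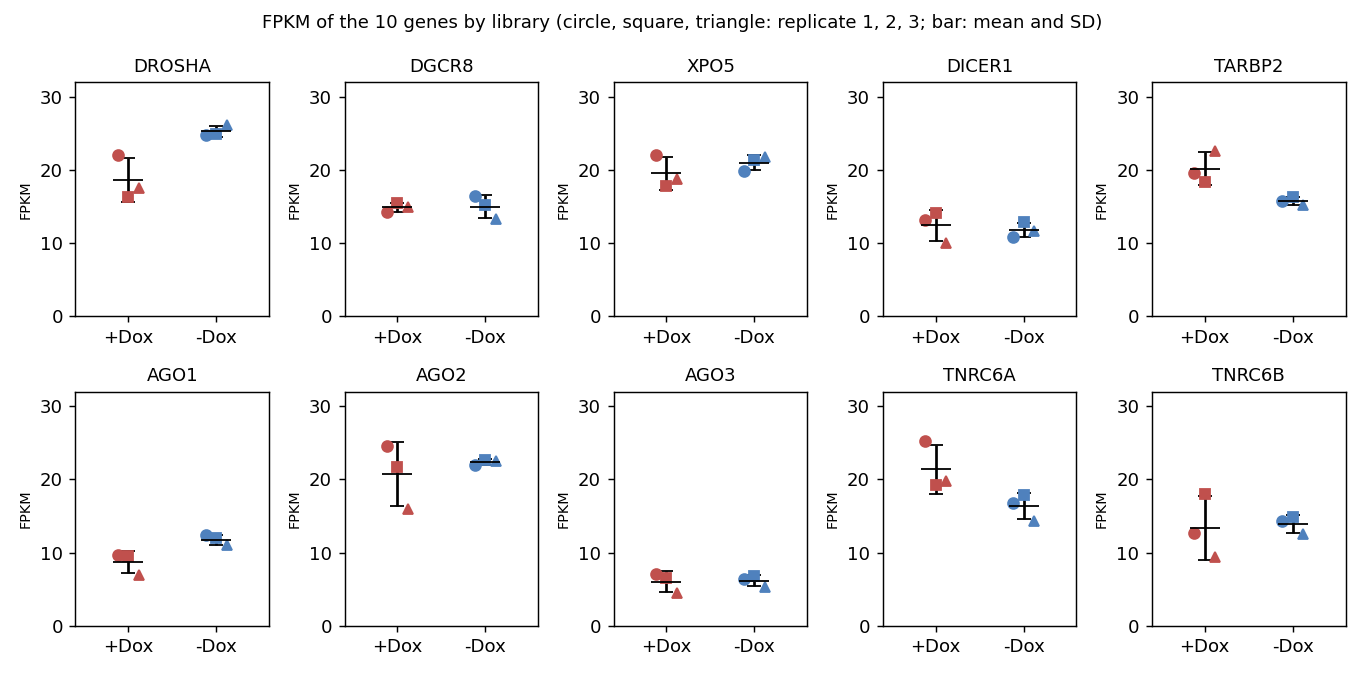
FPKM (vertical axes, from 0) of each of the 10 genes in +Dox (red) and -Dox (blue) libraries; circle, square and triangle are replicates 1, 2 and 3, and bars give the mean and SD (n = 3). The groups separate for DROSHA, TARBP2, AGO1 and TNRC6A and overlap for the other 6 genes.

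In the Microprocessor, DROSHA (ENSG00000113360, chr5:31400497-31532196, GRCh38) had 22.1, 16.4 and 17.6 FPKM in +Dox replicates 1, 2 and 3, against 24.7, 24.9 and 26.2 FPKM in -Dox replicates 1, 2 and 3. All 3 +Dox libraries lay below all 3 -Dox libraries, and +Dox replicate 1 was the closest to them. DROSHA fell to 73.9% of its -Dox level (log2 change -0.43, SE 0.11, 95% interval -0.68 to -0.18, limma adjusted p = 0.0464). In bulk RNA, a lower level in every cell and in some cells cannot be told apart. The call sat close to the threshold. Leaving out 1 library at a time, it was lost 5 times of 6 (adjusted p 0.0963 to 0.14) and kept without +Dox replicate 1 (0.0233); without +Dox replicate 3 the log2 change was -0.39 (0.0981). Its direction was the same in all 14 alternatives, with log2 changes of -0.55 to -0.34 and adjusted p of 0.0233 to 0.16.

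DGCR8 (ENSG00000128191, chr22:20080232-20111877), the double-stranded RNA-binding subunit, had 14.2, 15.5 and 15.0 FPKM in +Dox libraries, against 16.5, 15.2 and 13.3 FPKM in -Dox libraries. The groups overlapped fully and the change was -0.003 (95% interval -0.22 to 0.22, limma adjusted p = 0.988; without +Dox replicate 3, -0.01 and 0.975). The ratio of DROSHA to DGCR8 within a library was 1.55, 1.06 and 1.17 in +Dox and 1.50, 1.64 and 1.97 in -Dox libraries, so +Dox replicate 1 lay inside the -Dox range; this ratio was chosen after the values were seen and was not tested. The DGCR8 mRNA itself holds hairpins that the Microprocessor is known to cut, and they are shown as that known link between the partners. The mature products below come from RefSeq (GRCh38.p14, plus strand), with the seed, bases 2 to 8, in capitals. The pair from hairpin MIR1306 lies in coding sequence in 4 of the 5 DGCR8 transcripts with an exon there. The product miR-3618 lies in the untranslated part of the 3 transcripts that contain it. Both hairpin genes were listed at 0 FPKM in all 6 libraries, and mature microRNAs were not measured in these data.
hsa-miR-1306-5p: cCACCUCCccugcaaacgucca
hsa-miR-1306-3p: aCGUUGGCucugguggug
hsa-miR-3618: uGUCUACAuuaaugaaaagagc

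XPO5 (ENSG00000124571, chr6:43522334-43576038), the exporter of the cut hairpins, had 22.1, 17.8 and 18.7 FPKM in +Dox libraries, against 19.8, 21.4 and 21.8 FPKM in -Dox libraries. The groups overlapped, +Dox replicate 1 being the highest of all 6 (log2 change -0.10, 95% interval -0.32 to 0.12, limma adjusted p = 0.535; without +Dox replicate 3, -0.08 and 0.681). XPO5 shares 348 exon bases with POLR1C on the opposite strand (65.6 FPKM in +Dox and 54.4 FPKM in -Dox cells), and the sources used here do not say whether counting used strand, so its level is uncertain by that overlap.

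DICER1 (ENSG00000100697, chr14:95086228-95158010), which dices precursor hairpins, had 13.1, 14.2 and 10.0 FPKM in +Dox libraries, against 10.9, 12.8 and 11.6 FPKM in -Dox libraries. The +Dox group held both the highest and the lowest library (log2 change 0.06, 95% interval -0.23 to 0.35, limma adjusted p = 0.795), and without +Dox replicate 3 the change was 0.20 (0.237). TARBP2 (ENSG00000139546, chr12:53500921-53506431), its double-stranded RNA-binding partner, had 19.5, 18.4 and 22.7 FPKM in +Dox libraries, against 15.8, 16.4 and 15.2 FPKM in -Dox libraries. Every +Dox library lay above every -Dox library, at a mean of 128% of the -Dox level, but the limma adjusted p was 0.064 (log2 change 0.33, SE 0.10, 95% interval 0.11 to 0.55). Without +Dox replicate 3, where this short gene was highest, the change was 0.25 (0.105). The ratio of TARBP2 to DICER1, not tested, was 1.49, 1.30 and 2.27 in +Dox and 1.46, 1.28 and 1.31 in -Dox libraries, with only +Dox replicate 3 far outside the -Dox range.

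Among the Argonautes, which hold the guide strand, AGO2 was the most abundant per length and AGO1 the one whose groups separated. AGO1 (ENSG00000092847, chr1:35869808-35930532) had 9.69, 9.48 and 6.97 FPKM in +Dox libraries, against 12.4, 11.9 and 11.0 FPKM in -Dox libraries. All +Dox libraries were below all -Dox libraries, at a mean of 74% of the -Dox level (log2 change -0.41, SE 0.13, 95% interval -0.69 to -0.12), and the limma adjusted p of 0.0743 missed the threshold. Without +Dox replicate 3 the change was -0.27 (0.11). AGO2 (ENSG00000123908, chr8:140520156-140635633), the slicing Argonaute, had 24.5, 21.6 and 16.0 FPKM in +Dox libraries, against 22.0, 22.7 and 22.5 FPKM in -Dox libraries. The -Dox libraries were tight and the +Dox libraries lay on both sides of them (log2 change -0.13, 95% interval -0.43 to 0.18, limma adjusted p = 0.59); without +Dox replicate 3 the change was 0.04 (0.782). AGO3 (ENSG00000126070, chr1:35930718-36072500), a close relative whose specific role is less settled, had 7.08, 6.56 and 4.47 FPKM in +Dox libraries, against 6.38, 6.74 and 5.28 FPKM in -Dox libraries, and the groups overlapped (log2 change -0.03, 95% interval -0.38 to 0.32, limma adjusted p = 0.911; without +Dox replicate 3, 0.14 and 0.503).

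Shares of the summed Argonaute FPKM within a library do not depend on how libraries are scaled. With AGO4, the remaining human Argonaute gene, included, the sum was 45.2, 41.0 and 30.0 FPKM in +Dox libraries, against 44.6, 44.7 and 42.1 FPKM in -Dox libraries, so only +Dox replicate 3 was far below the rest. AGO1 made up 21.5%, 23.1% and 23.2% of it in +Dox libraries, against 27.8%, 26.7% and 26.2% in -Dox libraries. These groups did not overlap even with replicate 3 included (22.6% ± 1.0 in +Dox and 26.9% ± 0.8 in -Dox libraries, SD, n = 3 each; exact two-sided permutation p = 0.1, the smallest that 3 against 3 libraries allow, and 0.4 adjusted over the 4 shares). AGO2 made up 53.4% ± 0.8 in +Dox and 51.1% ± 2.08 in -Dox libraries (exact permutation p = 0.3). AGO3 made up 15.5% ± 0.55 in +Dox and 14.0% ± 1.31 in -Dox libraries (exact permutation p = 0.2), and AGO4 made up 8.4% ± 0.31 in +Dox and 8.0% ± 0.67 in -Dox libraries (exact permutation p = 0.5). Single libraries moved the smaller differences: AGO2's, 2.3 percentage points, was 1.4 without -Dox replicate 1, and AGO3's, 1.6, was 0.8 without -Dox replicate 3. That of AGO4, 0.4, was 0.7 without -Dox replicate 1 and 0.1 without -Dox replicate 2. The order AGO2, AGO1, AGO3, AGO4 was the same in all 6 libraries.

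**Figure D3:**
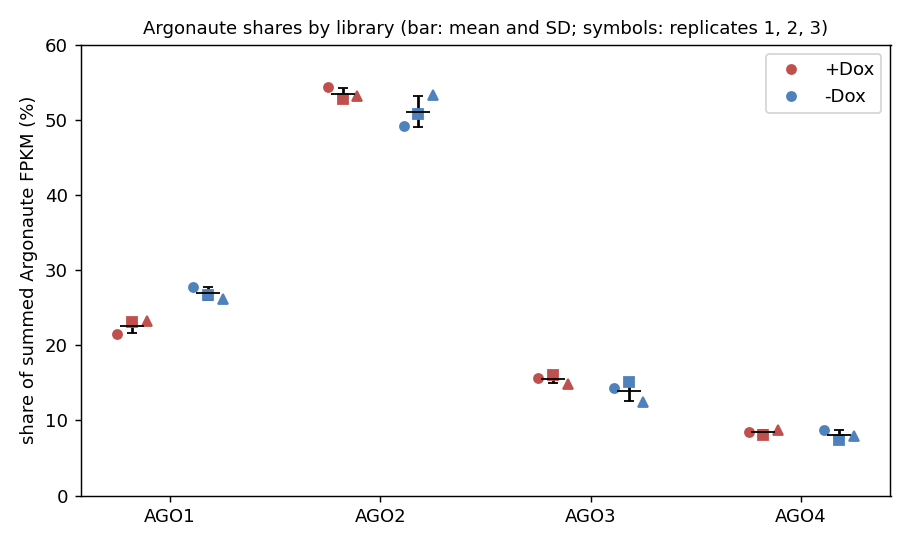
Share of the summed FPKM of AGO1, AGO2, AGO3 and AGO4 (vertical axis, percent) in each library; red is +Dox and blue -Dox, symbols are replicates 1, 2 and 3, and bars give the mean and SD (n = 3). AGO1 lies at 21.5% to 23.2% in +Dox and 26.2% to 27.8% in -Dox libraries, and the groups of the other Argonautes overlap.

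Of the GW182 scaffolds, TNRC6A (ENSG00000090905, chr16:24610209-24827632) had 25.3, 19.2 and 19.7 FPKM in +Dox libraries, against 16.8, 17.9 and 14.3 FPKM in -Dox libraries. Every +Dox library was above every -Dox library, +Dox replicate 1 by the most, at a mean of 131% of the -Dox level (log2 change 0.36, SE 0.12, 95% interval 0.08 to 0.64), with a limma adjusted p of 0.0959; without +Dox replicate 3 the change was 0.41 (0.113). TNRC6B (ENSG00000100354, chr22:40044817-40335808), its paralog in the same role, had 12.7, 18.0 and 9.37 FPKM in +Dox libraries, against 14.4, 14.9 and 12.6 FPKM in -Dox libraries. Its +Dox libraries lay on both sides of the -Dox group (log2 change -0.10, 95% interval -0.53 to 0.33, limma adjusted p = 0.777), and without replicate 3 the change was 0.11 (0.666). The ratio of TNRC6A to TNRC6B, not tested, was 1.99, 1.07 and 2.11 in +Dox and 1.17, 1.20 and 1.14 in -Dox libraries, so +Dox replicate 2 lay below the -Dox range and the other +Dox libraries above it.

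Correcting each library for transcript length and GC content kept the direction of the 4 genes with separated groups and lowered their adjusted p. DROSHA (-0.38, limma adjusted p = 0.0378) and AGO1 (-0.31, 0.0272) were then called lower and TARBP2 (0.32, 0.0247) and TNRC6A (0.43, 0.0342) higher, 4 of 10 members, where 18.5% of 14395 tested genes were called in that fit. With replicate number added to that fit as a block, AGO1 and TARBP2 stayed called, while DROSHA (limma adjusted p = 0.0509) and TNRC6A (0.0559) did not. The other 6 members were not called in the main fit or in any of the 14 alternatives.

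**Figure D4:**
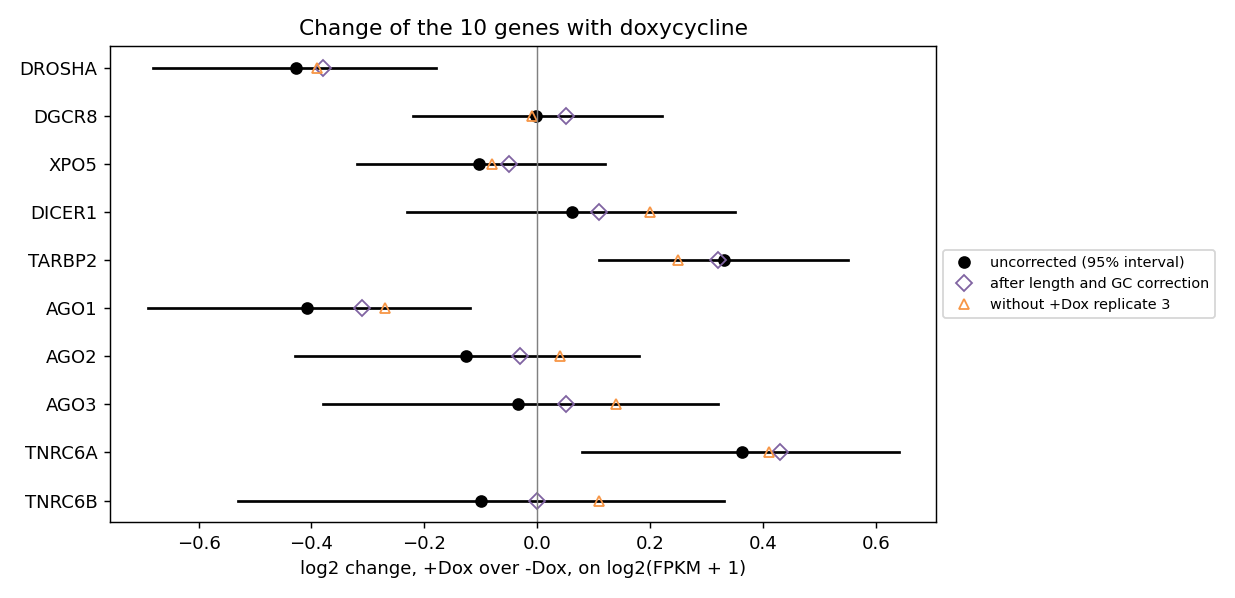
Log2 change, +Dox over -Dox, of each gene on the log2(FPKM + 1) scale (horizontal axis); black points and lines are the uncorrected fit and its 95% interval, purple diamonds the value after correction for length and GC, and orange triangles the value without +Dox replicate 3. DROSHA and AGO1 stay below 0 and TARBP2 and TNRC6A above 0 by all 3, while AGO2, AGO3, DGCR8 and TNRC6B move across or onto 0.

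The promoters of the 4 genes whose groups separated, and of AGO3, are shown because AGO1 and AGO3 lie in the same orientation with 185 bases between their annotated loci and only AGO1 had separate groups. Each is the RefSeq window (GRCh38.p14) from 250 bases before to 50 after a start site, 5′ to 3′ on the gene's strand. Capitals mark 3 boxes on either strand: CCAAT is known to bind the factor NF-Y, the box GGGCGG to bind SP1, and the box TATAAA to bind TBP; no base of these windows belongs to more than 1 of the motifs. DROSHA is chr5:31532044-31532343 on the minus strand, AGO1 chr1:35882959-35883258, AGO3 chr1:35930855-35931154, TARBP2 chr12:53500673-53500972 and TNRC6A chr16:24729401-24729700, all plus. The 185 bases run from the end of the AGO1 locus to the start of the AGO3 locus, so these promoters are not adjacent. Their printed start sites are at 35883209 for AGO1 and 35931105 for AGO3. The AGO1 and TNRC6A start sites lie 13401 and 119442 bases inside the loci given above, and TARBP2 has 3 windows in RefSeq, of which the outermost is printed.
DROSHA: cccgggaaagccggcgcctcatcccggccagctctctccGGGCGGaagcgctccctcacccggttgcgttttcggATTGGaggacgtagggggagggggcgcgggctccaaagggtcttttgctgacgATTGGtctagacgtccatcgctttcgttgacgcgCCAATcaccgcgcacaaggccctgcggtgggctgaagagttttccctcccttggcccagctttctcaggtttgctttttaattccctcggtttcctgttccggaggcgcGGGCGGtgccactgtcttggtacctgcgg
AGO1: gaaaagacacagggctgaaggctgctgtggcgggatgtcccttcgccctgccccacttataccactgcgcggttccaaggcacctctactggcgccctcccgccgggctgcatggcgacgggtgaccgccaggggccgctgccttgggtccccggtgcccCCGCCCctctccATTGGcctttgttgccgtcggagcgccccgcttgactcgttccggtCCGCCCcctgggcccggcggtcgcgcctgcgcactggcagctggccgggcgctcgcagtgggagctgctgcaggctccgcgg
AGO3: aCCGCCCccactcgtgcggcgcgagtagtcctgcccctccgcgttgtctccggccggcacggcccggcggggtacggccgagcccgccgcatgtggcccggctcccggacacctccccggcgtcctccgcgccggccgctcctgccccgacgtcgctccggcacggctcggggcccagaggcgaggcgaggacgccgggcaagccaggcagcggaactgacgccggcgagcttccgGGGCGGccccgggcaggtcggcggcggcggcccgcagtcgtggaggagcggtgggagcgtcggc
TARBP2: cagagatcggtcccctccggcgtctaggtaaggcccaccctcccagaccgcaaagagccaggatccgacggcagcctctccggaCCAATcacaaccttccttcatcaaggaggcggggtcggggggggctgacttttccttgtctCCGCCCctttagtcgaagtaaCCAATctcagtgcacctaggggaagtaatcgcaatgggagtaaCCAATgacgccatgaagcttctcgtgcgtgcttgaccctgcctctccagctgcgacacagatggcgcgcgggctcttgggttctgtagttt
TNRC6A: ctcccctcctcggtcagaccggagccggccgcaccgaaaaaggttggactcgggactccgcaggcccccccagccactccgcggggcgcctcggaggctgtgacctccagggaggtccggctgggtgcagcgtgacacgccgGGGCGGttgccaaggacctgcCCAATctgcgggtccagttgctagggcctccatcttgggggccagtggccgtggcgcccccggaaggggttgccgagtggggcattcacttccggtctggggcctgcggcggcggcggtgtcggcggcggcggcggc

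These windows are rich in CpG, as promoters of widely expressed genes are known to be, with 28, 30, 50, 19 and 31 CpG in DROSHA, AGO1, AGO3, TARBP2 and TNRC6A against a median of 14 over 35116 windows. DROSHA, lower in +Dox cells, and TARBP2, whose mean was higher in +Dox cells, each held 3 CCAAT boxes, AGO1 and TNRC6A 1 and AGO3 0, where 34.6% of all windows hold at least 1. The count did not set the separated genes apart. Among members whose groups overlapped, TNRC6B held 5, DGCR8 4, XPO5 0 and the DICER1 windows 0 or 1. Windows were used for 9 members, and AGO2, whose groups also overlapped, had none. The TARBP2 windows not printed held 0 and 1. GGGCGG was present in all 5 printed windows (45% of all windows), and TATAAA was in none of these 5 (11.5%). The matches describe these letters only.

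Around the members, 8 lists of pathway genes held 107 genes, of which 95 were tested; 6 rose and 2 fell by limma, 8.42% of those tested against the 8.46% of all genes. Of 10 loading chaperones, which open Argonaute for a duplex, 2 rose and 1 fell, with a median log2 change of 0.20. Before adjustment, 6 had a limma p under 0.05 with a higher level and 1 with a lower one. Over all tested genes, 27.9% had an unadjusted limma p under 0.05. The count of chaperones called higher depended on the processing. It was 4 with equal FPKM totals and with median-ratio scaling, where 458 and 648 of all 14475 genes were called higher. After the length and GC correction it was 7, where 1469 of 14395 genes were called higher. It was 0 with no filter on low values or without +Dox replicate 2, -Dox replicate 2 or -Dox replicate 3. STIP1, the HSP70 to HSP90 adaptor HOP, was at 262 ± 9.65 FPKM in +Dox and 199 ± 6.43 FPKM in -Dox cells (log2 0.39, limma adjusted p = 0.017). AHSA1, an activator of the HSP90 ATPase, was at 223 ± 17.8 FPKM in +Dox and 170 ± 7.03 FPKM in -Dox cells (0.38, 0.0266). The HSP90 co-chaperone FKBP5 fell to 26.3 ± 0.771 FPKM in +Dox, against 32.9 ± 1.25 FPKM in -Dox cells (log2 -0.31, limma adjusted p = 0.0386).

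The 16 tested genes of proteins that act on primary transcripts had a median log2 change of 0.07. Of 7 export and dicing cofactors 1 rose, RAN, the GTPase that XPO5 needs to bind its cargo, at 721 ± 64.6 FPKM in +Dox and 570 ± 14.3 FPKM in -Dox cells (log2 0.34, limma adjusted p = 0.0406), and 0 fell (median 0.01). Of 14 Argonaute cofactors 1 rose, EIF4E2, a cap-binding repressor of translation, at 72.0 ± 7.48 FPKM in +Dox and 53.5 ± 4.93 FPKM in -Dox cells (log2 0.42, limma adjusted p = 0.0376), with a median of 0.11. Of 11 tested genes of small RNA tailing and turnover 1 fell, the 3′ exonuclease gene ERI1, at 23.4 ± 1.41 FPKM in +Dox and 30.0 ± 2.13 FPKM in -Dox cells (log2 -0.34, limma adjusted p = 0.0437), with a median of 0.04. The let-7 inhibitors LIN28A and LIN28B stayed under 0.0732 FPKM. None of 25 deadenylation and decapping effectors passed (0 higher and 0 lower by limma, 1 and 2 at an unadjusted p under 0.05, median -0.01). Those with the smallest p were the deadenylase subunit PAN2, at 10.6 ± 1.07 FPKM in +Dox and 13.4 ± 1.61 FPKM in -Dox cells (limma adjusted p = 0.115), and the decapping scaffold PATL1, at 14.5 ± 0.701 FPKM in +Dox and 16.9 ± 0.437 FPKM in -Dox cells (0.149). Of the 6 relatives of the members, AGO4 (3.26 ± 0.634 FPKM in +Dox and 3.52 ± 0.328 FPKM in -Dox cells) and TNRC6C (6.74 ± 1.29 FPKM in +Dox and 6.30 ± 0.757 FPKM in -Dox cells) were tested and not called (limma adjusted p = 0.682 and 0.774; 0 also at an unadjusted p under 0.05). The 4 PIWI genes of the germline stayed under 0.721 FPKM.

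Of 10 tested noncoding host transcripts of microRNAs 1 rose and 0 fell (median 0.04). MIR22HG, the host of miR-22, had 2.84, 2.56 and 2.47 FPKM in +Dox libraries, against 1.36, 1.64 and 1.29 FPKM in -Dox libraries. All +Dox libraries were above all -Dox libraries, at 184% of the -Dox mean (log2 0.58, SE 0.12, limma adjusted p = 0.0223). The products of its exonic hairpin (RefSeq, GRCh38.p14, chromosome 17, minus strand) are shown with the seed in capitals because this is the only host that passed.
hsa-miR-22-3p: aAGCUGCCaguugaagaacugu
hsa-miR-22-5p: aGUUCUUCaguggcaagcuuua

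Each of the 8 pathway calls was lost on leaving out 3 to 6 of the libraries in turn, and over the 14 alternatives the limma adjusted p reached 0.168. Leaving out -Dox replicate 2 or -Dox replicate 3 ended all 8 calls. Without +Dox replicate 3, ERI1 and EIF4E2 were not called. After the length and GC correction 4 Argonaute cofactors were called higher, and 3 host transcripts were called higher and 2 lower. In that fit 18.5% of all 14395 tested genes were called either way, against 8.46% in the main fit.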

How the data were processed

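TRIzol total RNA of 6 HCT116 samples (3 +Dox, 3 -Dox) was sequenced, per the labels' protocols. The authors' deposited table holds 1 FPKM value per gene and library; the unit was read from the values, since the header names none. Values of 3640 single-exon genes over 1000 bases fell on whole fragment steps (82.9% to 84.3% of low values within 0.1 of a whole number) once 235 to 280 bases were taken off the length, which also gave the estimated depth. At that depth the members rest on an estimated 414 to 7520 fragments per library, if the longest transcript is used, and 3 fragments in 1 kb equal 0.137 to 0.18 FPKM; both cover counting error only. Bowtie, BWA, STAR, Cufflinks, RSEM, kallisto and hg19 are named without roles or versions, per the submitters' processing notes; the loci are those of GRCh38 with starts from 0 (39321 of 39331 versioned IDs equal GENCODE 29 after that offset) and are printed from 1. FPKM divides out library size, so a class of transcripts that takes more of a library lowers the others.

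The 14475 genes reaching 1 FPKM in 3 or more libraries were fitted by limma 3.58.1 (R 4.3.3) on the log2(FPKM + 1) scale (trended, robust empirical Bayes, group only, two-sided, Benjamini-Hochberg over all tested genes, threshold 0.05). The 1 FPKM added before taking log2 understates changes of low genes. Tested on data simulated from these 14475 genes, the fit found 4.8% of 1.25-fold, 51.2% of 1.5-fold and 86.8% of 2-fold changes, with 3.83% false calls. The simulated noise was independent between genes, and changes were placed only in genes above a set mean level. These rates therefore do not cover deviations that many genes share in a library. Changes were placed in 200 genes, fewer than the 1225 called in the data. The adjusted p depends on that number, so the rates may differ in these data. Alternatives were the pseudocount (0.1), no filter, equal totals, median-ratio scaling, no trend, a replicate block, leaving out each library, and a loess correction for longest transcript length and GC content, alone and with the block. The members and lists were chosen with earlier results of these data known. Named genes were the members, CAPG and, per list, up to 6 called genes with the smallest p, or 2 where none passed; LIN28A, LIN28B and the markers and overlapping gene named were chosen after their values were seen. A result that the rule for named genes selects is not reported here.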

Additional observations from a re-analysis of the deposited data

How the results depend on the processing

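Calls over all 14475 tested genes numbered 1225 (534 higher, 691 lower); they numbered 157 with no filter on low values (31961 genes tested), 211 with the replicate block, 223 to 1000 without 1 library, and 2659 (1469 higher, 1190 lower) after the length and GC correction. The members called lower numbered 1, but 0 with no filter, with no trend and no robust fit, with the replicate block, and 0 to 1 without 1 library, and 2 on correcting length and GC. The members called higher numbered 0, but 2 after that correction and 1 after it with the replicate block; without 1 library they numbered 0. The cause was not tested. By design, fits without a library have fewer samples and the fit with no filter tests more genes. Deviations of same-numbered replicates had correlations of -0.043, 0.009 and -0.023, and no +Dox library correlated best with its own number. Such correlations cannot decide whether libraries were paired, since they rest on deviations from means of 3 libraries. The labels do not state a pairing. With the block DROSHA had a limma adjusted p of 0.0956 and 0 loading chaperones were called. With the length and GC correction and the block, AGO1 and TARBP2 were called, while DROSHA (limma adjusted p = 0.0509) and TNRC6A (0.0559) were not, and 4 loading chaperones were called higher. In that fit 998 of 14395 tested genes were called higher and 809 lower. The differences in Argonaute share kept their sign without each library in turn and without AGO4, at -4.6 to -3.7 percentage points for AGO1, 1.4 to 3.4 for AGO2, 0.8 to 2.1 for AGO3 and, over the libraries only, 0.1 to 0.7 for AGO4. With 3 libraries a group, 51.2% of simulated 1.5-fold changes were found, so smaller changes in a member could go undetected. That simulation did not model depth or the shared shift of long genes in +Dox replicate 3, and it changed fewer genes than were called in the data.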
